A study of Mus musculus with 6 samples.

Results

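Genes of cholesterol synthesis, sterol sensing, uptake and efflux were examined in MLL-AF9 leukemia cells from mice given vehicle or DS-5272. The genes were taken from a list of 32 names by role, and those with a mean of at least 1 FPKM (fragments per length of transcript and per total of mapped fragments) over the 6 libraries were used. The list holds 17 synthesis enzymes, 5 genes of sterol sensing and control, 5 genes of sterol uptake, transfer and storage, and 5 genes of the liver X receptors (LXR) and efflux. Of the 32 names, 29 had an entry of their own at that level, out of 11130 genes of the table that reached it. The other 3, Tm7sf2, Nr1h2 and Nr1h3, stand in entries joined with a neighbouring gene and could not be separated from it.

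RNA-Seq was run on 6 libraries, 3 from leukemic mice given vehicle by mouth and 3 from leukemic mice given DS-5272 by mouth at 80 mg/kg, with leukemia cells taken from the bone marrow 24 h later. DS-5272 blocks the interaction of MDM2 with p53 and so activates p53. All 6 libraries share the C57BL/6J strain and the MLL-AF9 fusion oncogene, carried by a retrovirus into c-Kit+ marrow progenitors that were then grown as a transplanted leukemia, so one engineered leukemia model stands behind both groups. The labels do not say that each library came from a different mouse or how leukemia cells were separated from other marrow cells, and p-values therefore measure the spread between these libraries, which may be technical in part.

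Cells sense sterol in the endoplasmic reticulum. When sterol is low, SCAP escorts SREBP2 to the Golgi, where it is cleaved into a transcription factor for the enzymes of cholesterol synthesis, and when sterol is high, INSIG proteins hold SCAP back. Excess sterol is converted in part to oxysterols, which activate LXR, and LXR raises transporters that export cholesterol and the ubiquitin ligase MYLIP, which lowers lipoprotein uptake. p53 is known as a factor that restrains this synthesis program, in part through the exporter ABCA1. Leukemia cells, like other dividing cells, use the pathway for membranes and for the isoprenoid tails of signalling proteins.

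DS-5272-treated MLL-AF9 cells carried less mRNA for most cholesterol synthesis enzymes and for Srebf2. They carried more for the efflux transporter Abcg1, the ubiquitin ligase Mylip and the lysosomal cholesterol carriers Npc1 and Npc2. Of the 29 members, 14 (48.3%) were lower at an adjusted p under 0.05 (limma), against 22.0% of all tested genes, and 5 (17.2%) were higher, against 24.2% of all tested genes. The 3 values of each group did not overlap for 14 of the 29 members that were lower, against 29.7% of all tested genes. The same held for 8 of the 29 that were higher, a share below the 32.1% of all tested genes. Among these 8 were Mvd, Ebp and Abca1, which had no call. Abca1 passed the filter on low values only through the treated group. The lower genes were 11 of 16 synthesis enzymes, Srebf2, Stard4 and Tmem97. The higher genes were Npc1, Npc2, Soat1, Abcg1 and Mylip. With the replicate number as a block the members stayed at 14 lower and 5 higher, against 24.9% and 30.3% of all tested genes. The median log2 fold change was −0.28 over the members and 0.04 over all tested genes, whose quartiles lay at −0.34 and 0.46.

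**Figure D1:**
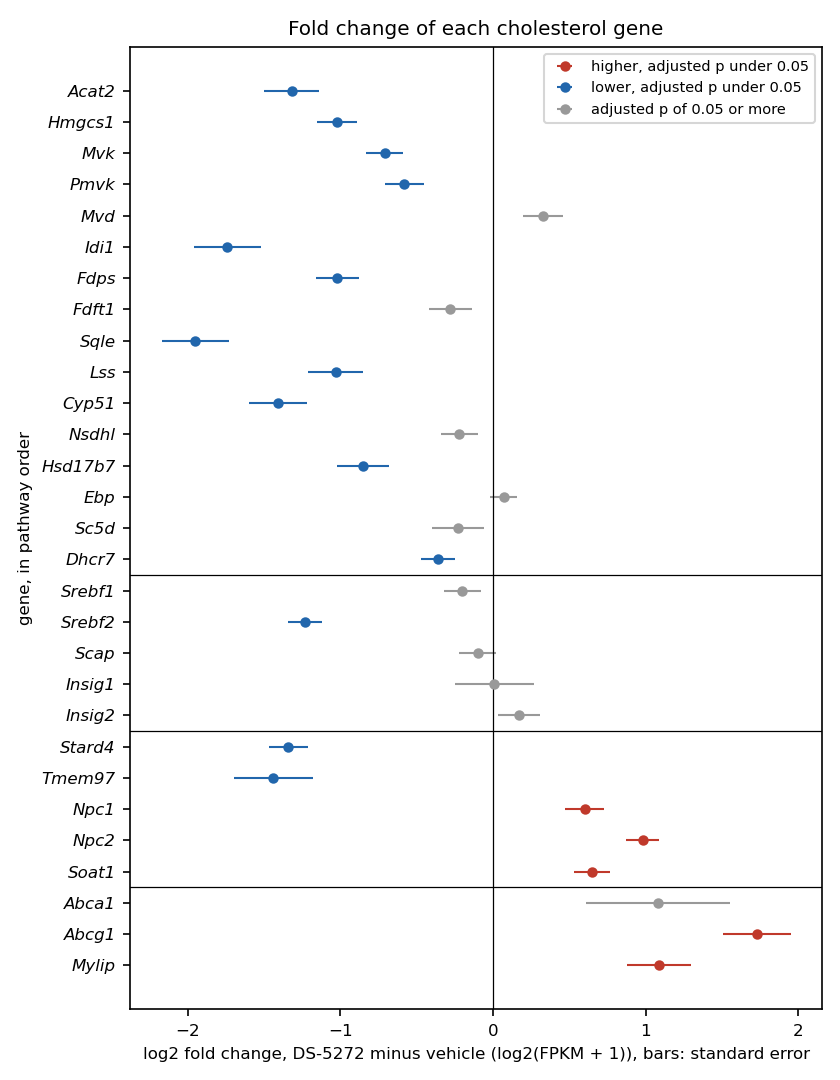
Log2 fold change (DS-5272 minus vehicle, on log2(FPKM + 1)) of the members in their 4 role groups, with bars of 1 standard error from limma and n = 3 per group. Sqle (−1.95) and Idi1 (−1.74) lie farthest to the left and Abcg1 (1.73) farthest to the right.

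The libraries were checked against their labels before the members were read. Cdkn1a, a p53 target that halts the cell cycle, was at 14.8, 28.1 and 25.5 FPKM with vehicle and 32.3, 117 and 485 FPKM with DS-5272 (adjusted p = 0.0611, and 0.0137 with a replicate block). Mdm2, another p53 target, gave adjusted p = 0.0733 and 0.0148 in these fits. For both genes all 3 treated libraries lay above all 3 vehicle libraries. The leukemia genes with an entry of their own (7 of 10) summed to 675 to 715 FPKM with vehicle and 1080 to 1750 with DS-5272, and none was at 0. Members of this list went both ways. Itgam, a general myeloid gene, went from 168 to 754 FPKM and Ptprc, a general leukocyte gene, from 75.7 to 175 FPKM in the mean. The progenitor gene Kit fell from 36 to 8.9 FPKM (limma, adjusted p = 0.00462). Myb, another progenitor gene, was at 210 and 174 FPKM (adjusted p = 0.116, and 0.0369 with a replicate block). Mef2c rose from 0.169 to 1.92 FPKM (adjusted p = 0.00312), and passed the filter on low values only through the treated group. Meis1, at 75.2 and 90.2 FPKM, and Pbx3, at 132 and 142 FPKM, had no call. The 6 proliferation genes summed to 487 to 548 FPKM with vehicle and 37.9 to 226 with DS-5272. The 10 granulocyte maturation genes summed to 382 to 2010 and 3830 to 14700 FPKM, and the 14 bone marrow macrophage genes to 79.9 to 137 and 219 to 512 FPKM. DS-5272 replicate 1 stood apart, with the highest value for 13 of the 14 macrophage genes. The marker sums of other cells were 1.94 to 3.86 and 8.28 to 91.5 FPKM for erythroid cells, 28.9 to 59.9 and 73.2 to 112 for stroma and endothelium, 2.59 to 2.91 and 4.35 to 6.91 for megakaryocytes, 0.279 to 0.396 and 0.6 to 3.47 for T cells, 4.29 to 5.02 and 3.39 to 4.29 for B cells, and 1.18 to 1.7 and 1.35 to 2.03 for NK cells. No marker was at 0 in all libraries. In a bulk sample, fewer cells of a type and less RNA per cell cannot be told apart. Rescaled to a common total (TPM), the count over all genes moved from 2697 higher and 2451 lower to 1717 higher and 3536 lower, and the median over all genes moved from 0.04 to −0.21.

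Promoter sequence is shown for 3 members because SREBP2 is known to act through short elements next to CCAAT boxes, and these genes are an enzyme that fell, the regulator that fell and a sterol-regulated gene without a call. Hmgcs1 is the member whose window held the sterol element, and Srebf2 and Insig1 were chosen after their values were seen. Each sequence is the 250 bases before the RefSeq start on the plus strand of GRCm38.p6, at chr13:119690101-119690350 for Hmgcs1, chr15:82147019-82147268 for Srebf2 and chr5:28071162-28071411 for Insig1. Capitals mark letters that match the sterol element TCACNCCAC, the NF-Y box CCAAT (read as ATTGG from the other strand) and the E-box CACGTG.
Hmgcs1: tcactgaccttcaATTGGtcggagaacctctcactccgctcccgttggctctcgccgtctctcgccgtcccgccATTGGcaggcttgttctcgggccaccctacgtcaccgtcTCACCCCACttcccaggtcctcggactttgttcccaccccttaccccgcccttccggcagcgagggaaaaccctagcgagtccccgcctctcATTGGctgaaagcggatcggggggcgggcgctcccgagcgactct
Srebf2: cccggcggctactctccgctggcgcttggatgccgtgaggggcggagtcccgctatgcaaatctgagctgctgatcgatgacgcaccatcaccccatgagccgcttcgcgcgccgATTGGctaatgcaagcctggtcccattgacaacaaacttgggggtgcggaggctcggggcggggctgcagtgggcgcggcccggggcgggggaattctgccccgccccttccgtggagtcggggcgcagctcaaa
Insig1: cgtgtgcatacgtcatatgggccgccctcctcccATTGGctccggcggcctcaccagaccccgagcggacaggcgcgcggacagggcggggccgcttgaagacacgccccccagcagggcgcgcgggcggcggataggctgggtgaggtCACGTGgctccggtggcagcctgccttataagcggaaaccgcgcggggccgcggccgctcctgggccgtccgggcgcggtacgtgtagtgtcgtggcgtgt

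In Hmgcs1 the sterol element began 137 bases before the start, between ATTGG boxes that began 176 and 45 bases before it, with another at 237. Srebf2 held 1 ATTGG, 135 bases before its start. Insig1 held 1 ATTGG at 216 and 1 CACGTG at 101 bases before its start. A match of letters is a description and was not tested as a binding site.

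RefSeq windows of 300 bases, from 250 before to 50 after the start, were matched for 26 of the 32 members (35 windows), and windows of Stard4, Abcg1, Fdft1, Npc1, Fdps and Sqle were not analysed here. Both strands were searched. The NF-Y box was in 22 of 35 member windows (62.9%) and in 37.4% of all 32851 windows. Among the synthesis enzymes 13 of 17 windows (76.5%) held it, including Idi1, Lss, Cyp51, Mvk and Pmvk, which fell, and Mvd and Ebp, which had no call. Among the uptake, transfer and storage genes 3 of 3 windows (100%) held it, those of Npc2 and Soat1, which rose, and Tmem97, which fell. Among the LXR and efflux genes 1 of 5 windows (20%) held it, that of Mylip, which rose. The sterol element in this exact form was in 1 member window (2.86%), that of Hmgcs1, and in 1.24% of all windows. The E-box was in 7 member windows (20%) and 7.15% of all windows. The LXR element of the DR4 type, AGGTCA repeated in the same direction with 4 bases between, was in 0 of 35 member windows and 0.0152% of all windows, and a looser form without the leading A of each repeat was in 0 and 0.0761%. None of these shares was tested.

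The first steps of the pathway turn acetyl-CoA into farnesyl diphosphate. Of 7 tested enzymes of this stretch 6 fell, with a median log2 fold change of −1.02. Acat2, which joins acetyl-CoA units in the cytosol, was at 8.0, 6.55 and 6.23 FPKM with vehicle and 2.29, 2.79 and 1.54 with DS-5272 (log2 fold change −1.32 ± 0.18 SE, adjusted p = 0.00334). Hmgcs1, the HMG-CoA synthase of the cytosol, was at 12.5, 16.4 and 15.3 FPKM with vehicle and 7.46, 6.24 and 6.6 with DS-5272 (−1.02 ± 0.13, adjusted p = 0.0029). Both genes fell in every treated library with a wide gap between the groups.

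Mvk, Pmvk and Mvd act in order on mevalonate. Mvk, mevalonate kinase, was at 8.01, 10.1 and 8.46 FPKM with vehicle and 4.74, 4.89 and 5.38 with DS-5272 (−0.71 ± 0.12, adjusted p = 0.00552). Pmvk, phosphomevalonate kinase, was at 16.3, 20.9 and 19.9 and at 13.4, 12.5 and 11.1 FPKM (−0.58 ± 0.13, adjusted p = 0.012, and 0.0538 and 0.051 without vehicle replicate 2 or 3). Mvd, the decarboxylase that follows, was at 6.65, 8.62 and 8.45 and at 9.6, 9.52 and 11.3 FPKM (0.33 ± 0.13, adjusted p = 0.0813). The values of Mvd lay higher in all 3 treated libraries without passing the test, and the kinases and the decarboxylase had fold changes of opposite sign.

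Idi1 and Fdps build the isoprenoid chain. Idi1, the isomerase that makes dimethylallyl diphosphate, was at 20.1, 21.2 and 22.5 FPKM with vehicle and 6.58, 7.4 and 3.69 with DS-5272 (−1.74 ± 0.22, adjusted p = 0.00277). Fdps, farnesyl diphosphate synthase and the most abundant synthesis enzyme per transcript length, was at 60.8, 74.3 and 64.2 and at 33.8, 36.8 and 26.9 FPKM (−1.02 ± 0.14, adjusted p = 0.00375). Means fell from 21.3 ± 1.24 to 5.89 ± 1.95 FPKM for Idi1 and from 66.4 ± 7.01 to 32.5 ± 5.09 FPKM for Fdps (SD, n = 3).

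The steps from farnesyl diphosphate through squalene to lanosterol and its demethylation are specific to sterols. Of 4 tested enzymes 3 fell, against 22.0% of all tested genes, with a median of −1.22. Sqle, the squalene epoxidase and a rate-controlling oxygenase, was at 8.37, 9.45 and 9.81 FPKM with vehicle and 2.27, 1.96 and 0.882 with DS-5272 (−1.95 ± 0.22, adjusted p = 0.00201). On the log2(FPKM + 1) scale it had the largest change in size of the 29 members. Lss, which closes the rings of lanosterol, was at 5.22, 5.54 and 5.33 and at 2.95, 2.07 and 1.5 FPKM (−1.03 ± 0.18, adjusted p = 0.0061). Cyp51, the lanosterol demethylase, was at 7.95, 9.0 and 9.69 and at 3.37, 3.18 and 1.8 FPKM (−1.41 ± 0.19, adjusted p = 0.00338). Fdft1, squalene synthase and the entry step of this branch, was at 6.03, 7.56 and 8.09 and at 5.06, 6.01 and 6.24 FPKM, and its groups overlapped (−0.28 ± 0.14, adjusted p = 0.143). An exon of Fdft1 overlaps Ctsb on the opposite strand in the GENCODE annotation, and counting is not stated to use strand.

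The later enzymes, which trim and reduce the sterol, had smaller changes by their median. Of 5 tested enzymes 2 fell, against 22.0% of all tested genes, with a median of −0.23. Hsd17b7, a 3-keto-sterol reductase, was at 3.48, 4.59 and 4.03 FPKM with vehicle and 2.16, 2.0 and 1.26 with DS-5272 (−0.85 ± 0.17, adjusted p = 0.0093). Dhcr7, which reduces 7-dehydrocholesterol to cholesterol, was at 20.7, 21.5 and 21.7 and at 18.3, 16.4 and 14.5 FPKM (−0.36 ± 0.11, adjusted p = 0.0331, from 0.0525 to 0.113 in 5 of the 6 fits without 1 library). The call on Hsd17b7 held in all 6 of those fits.

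Nsdhl, Ebp and Sc5d, which remove a carboxyl group, shift and insert ring double bonds, did not pass the test. Nsdhl was at 8.38, 9.67 and 10.2 FPKM with vehicle and 7.12, 7.9 and 8.71 with DS-5272 (−0.22 ± 0.12, adjusted p = 0.164). Ebp was at 26.9, 28.8 and 29.2 and at 29.3, 30.2 and 29.5 FPKM (0.07 ± 0.09, adjusted p = 0.544). Sc5d was at 13.6, 17.2 and 16.6 and at 12.6, 10.9 and 16.8 FPKM (−0.23 ± 0.17, adjusted p = 0.298). The treated values of Ebp sat just above its vehicle values, and those of Nsdhl and Sc5d overlapped with vehicle. After rescaling to a common total, Fdft1 (adjusted p = 0.0155), Nsdhl (0.0139) and Sc5d (0.0318) also passed as lower.

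**Figure D2:**
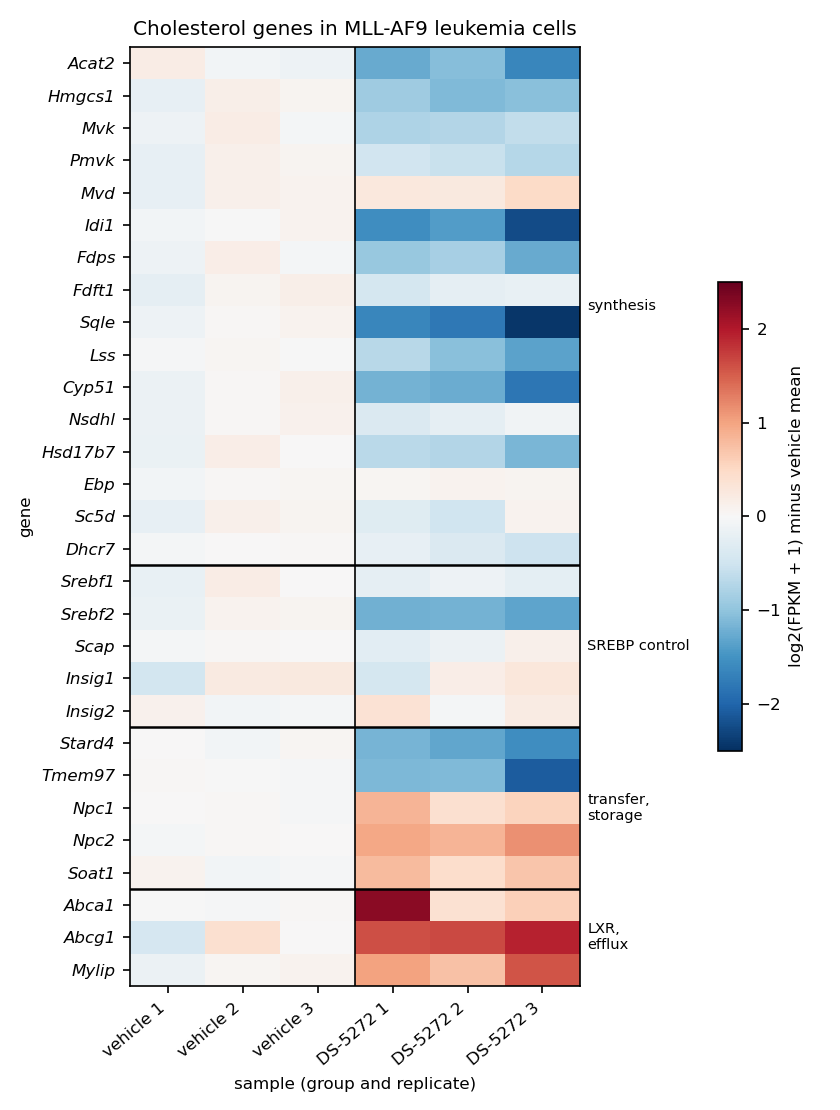
Log2(FPKM + 1) of each member in each of the 6 libraries, relative to the mean of the 3 vehicle libraries (colour, log2 units), in pathway order. The synthesis enzymes Sqle, Idi1 and Cyp51 are lower in all 3 treated libraries, and Insig1 varies with the replicate number in both groups.

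Over the 16 tested synthesis enzymes, 11 (68.8%) fell and 0 rose, with a median of −0.78, against 22.0% lower and 24.2% higher of all tested genes. At an unadjusted p under 0.05 (limma) 1 was higher, Mvd. Their mean level was 3.61, 3.81 and 3.78 log2(FPKM + 1) with vehicle and 3.04, 3.02 and 2.83 with DS-5272. The proliferation genes moved with them, at 487 to 548 FPKM in sum against 37.9 to 226, and their part in the result was not tested.

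Among the genes of sterol sensing, Srebf2 fell and the other 4 did not pass the test. Srebf2, which encodes the main transcription factor of the pathway, was at 35, 42.0 and 41.4 FPKM with vehicle and 16.6, 16.8 and 15.2 with DS-5272. Its mean went from 39.5 ± 3.87 to 16.2 ± 0.876 FPKM (SD, n = 3, log2 fold change −1.23 ± 0.11 SE, adjusted p = 0.00105). The treated libraries lay closer together than the vehicle libraries, and the groups were far apart. The gene spans chr15:82147181-82205379 on the plus strand, and no other annotated gene shares its exons.

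Srebf1, which encodes the paralog that drives fatty acid synthesis, was at 19.5, 25.6 and 22.7 FPKM with vehicle and 19.0, 20.4 and 18.9 with DS-5272 (−0.20 ± 0.12, adjusted p = 0.204). Scap, the escort, was at 20.8, 22.2 and 21.9 and at 17.8, 19.5 and 23.7 FPKM (−0.10 ± 0.12, adjusted p = 0.546). Rescaled to a common total, both passed as lower, at adjusted p = 0.0342 and 0.0229. Insig2, an anchor of SCAP, was at 3.51, 3.0 and 3.06 and at 4.39, 3.06 and 3.82 FPKM (0.17 ± 0.14, adjusted p = 0.342).

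Insig1, the sterol-responsive anchor of SCAP and a known SREBP2 target, was at 12.4, 20.6 and 20.8 FPKM with vehicle and 12.7, 19.8 and 21.4 with DS-5272 (0.01 ± 0.26, adjusted p = 0.982). The libraries numbered 1 were low in both groups and those numbered 2 and 3 high, so the groups overlapped fully. With the replicate number as a block the standard error was 0.10 and the adjusted p was 0.95. In each numbered pair the treated value of Insig1 lay next to the vehicle value. Its window held a CCAAT box and an E-box, as printed above, and no exact sterol element.

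Transfer and storage genes went both ways, with 2 lower and 3 higher of 5. The 2 that fell carry sterol to the endoplasmic reticulum or tune that traffic, and both are known SREBP2 targets. Stard4, a cytosolic sterol carrier, was at 9.25, 8.71 and 9.45 FPKM with vehicle and 3.51, 3.11 and 2.44 with DS-5272 (−1.34 ± 0.13, adjusted p = 0.00141). Tmem97, a partner of NPC1, was at 37.2, 36.3 and 35.5 and at 16.2, 16.3 and 7.81 FPKM (−1.44 ± 0.26, adjusted p = 0.00694). The treated values were below every vehicle value for both genes, and DS-5272 replicate 3 was the lowest.

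The 3 that rose empty lysosomes of cholesterol or esterify it for storage. Npc1, the membrane transporter of the lysosome, was at 12.8, 13 and 12.5 FPKM with vehicle and 23.9, 17.1 and 19.3 with DS-5272 (0.60 ± 0.13, adjusted p = 0.012). Npc2, its soluble partner and the most abundant member per transcript length, was at 80.1, 85.2 and 83.6 and at 163, 150 and 184 FPKM (0.98 ± 0.11, adjusted p = 0.00199). Soat1, the enzyme that esterifies cholesterol, was at 48.2, 43.3 and 44.7 and at 79.7, 62.0 and 74.0 FPKM (0.65 ± 0.12, adjusted p = 0.00723). Npc2 rose under every alternative, whereas Npc1 (adjusted p = 0.188) and Soat1 (0.114) lost the call when libraries were rescaled to a common total. An exon of Npc1 overlaps Rmc1 on the opposite strand.

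Of the 3 tested genes in the LXR and efflux group, Abcg1 and Mylip rose (66.7%, against 24.2% of all tested genes). Abca1, the other efflux transporter beside Abcg1, did not pass the test. Abcg1, a transporter that moves cholesterol to high-density lipoprotein and a classical LXR target, was at 2.5, 5.2 and 3.73 FPKM with vehicle and 13.4, 13.7 and 16.8 with DS-5272. Its mean went from 3.81 ± 1.35 to 14.6 ± 1.88 FPKM (SD, n = 3, log2 fold change 1.73 ± 0.22 SE, adjusted p = 0.00271). Mylip, the ligase that removes lipoprotein receptors, was at 11.0, 12.8 and 13.1 and at 25.5, 21.0 and 38.2 FPKM (1.09 ± 0.21, adjusted p = 0.00831). The lowest treated value was above the highest vehicle value for both genes. Both calls held in all 6 fits without 1 library, where the log2 fold change ran from 1.52 to 1.93 for Abcg1 and from 0.86 to 1.28 for Mylip.

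Abca1, the transporter that loads cholesterol onto apolipoprotein A-I, was at 0.146, 0.132 and 0.175 FPKM with vehicle and 4.49, 0.495 and 0.746 with DS-5272. All 3 treated libraries were above all vehicle libraries, and DS-5272 replicate 1 was far above the other treated ones. Its mean went from 0.151 ± 0.022 to 1.91 ± 2.24 FPKM (SD, n = 3), and it passed the filter on low values only through the treated group. The log2 fold change was 1.08 ± 0.47 SE (adjusted p = 0.102, and 0.0537 with the replicate block). Without DS-5272 replicate 1 the change was 0.49 and the adjusted p 0.0372, and over all alternatives the adjusted p ran from 0.0372 to 0.201. A pseudocount of 0.1 gave 2.40 and 0.0442.

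DS-5272 replicate 1 was also the library with the most macrophage mRNA. Cd5l, a gene of tissue macrophages and an LXR target, was at 1.3, 0.242 and 1.64 FPKM with vehicle and 61.7, 1.76 and 4.43 with DS-5272, and C1qa, a complement gene of macrophages, was at 1.33, 0.72 and 2.15 and at 38.4, 6.92 and 6.64. Abca1 and both macrophage genes had their highest value in the same library, while Abcg1 and Mylip were highest in DS-5272 replicate 3. The part of macrophage mRNA in the values of Abca1, Abcg1 and Mylip was not tested. The granulocyte maturation genes, at 382 to 2010 FPKM in sum with vehicle and 3830 to 14700 with DS-5272, moved with Abcg1 and Mylip, and their part was not tested either.

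**Figure D3:**
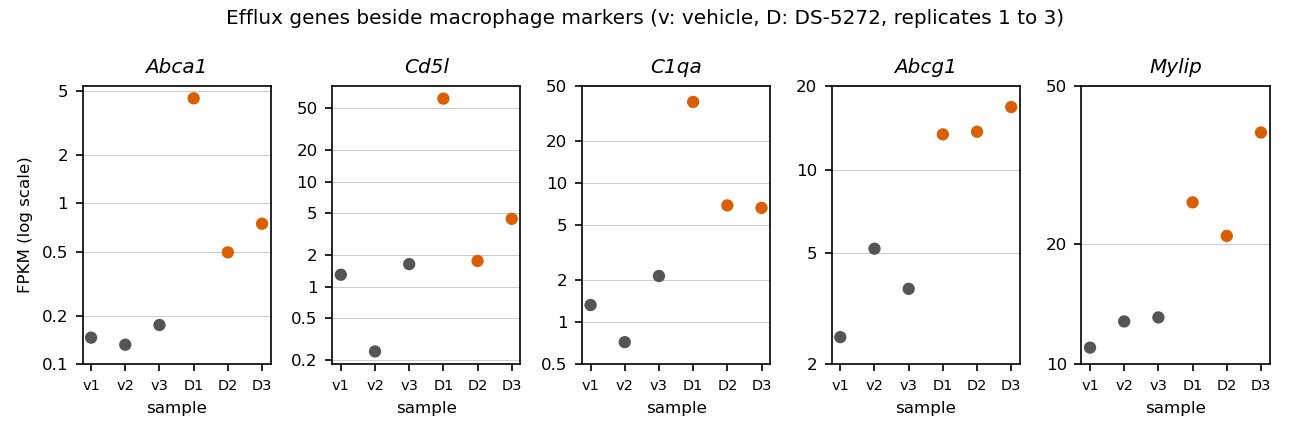
FPKM (log axis) of Abca1, Cd5l, C1qa, Abcg1 and Mylip in the 3 vehicle (v1 to v3) and 3 DS-5272 (D1 to D3) libraries, 1 point per library. Abca1 (4.49), Cd5l (61.7) and C1qa (38.4) peak in D1, whereas Abcg1 (16.8) and Mylip (38.2) peak in D3.

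The receptors themselves could not be read alone. The entry of Nr1h3 (LXR alpha) with Madd was at 8.46, 6.17 and 6.52 FPKM with vehicle and 14, 10.8 and 13.2 with DS-5272 (0.77 ± 0.15, adjusted p = 0.00861, and 0.0775 after rescaling to a common total). The entry of Nr1h2 (LXR beta) with Pold1 was at 72.2, 78.5 and 81.0 and at 62.6, 81.5 and 82.2 FPKM (−0.04 ± 0.13, adjusted p = 0.803). That of Tm7sf2, a sterol reductase, with 1110014N23Rik gave 0.01 ± 0.15 (adjusted p = 0.972). None of these can be assigned to the named member.

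**Figure D4:**
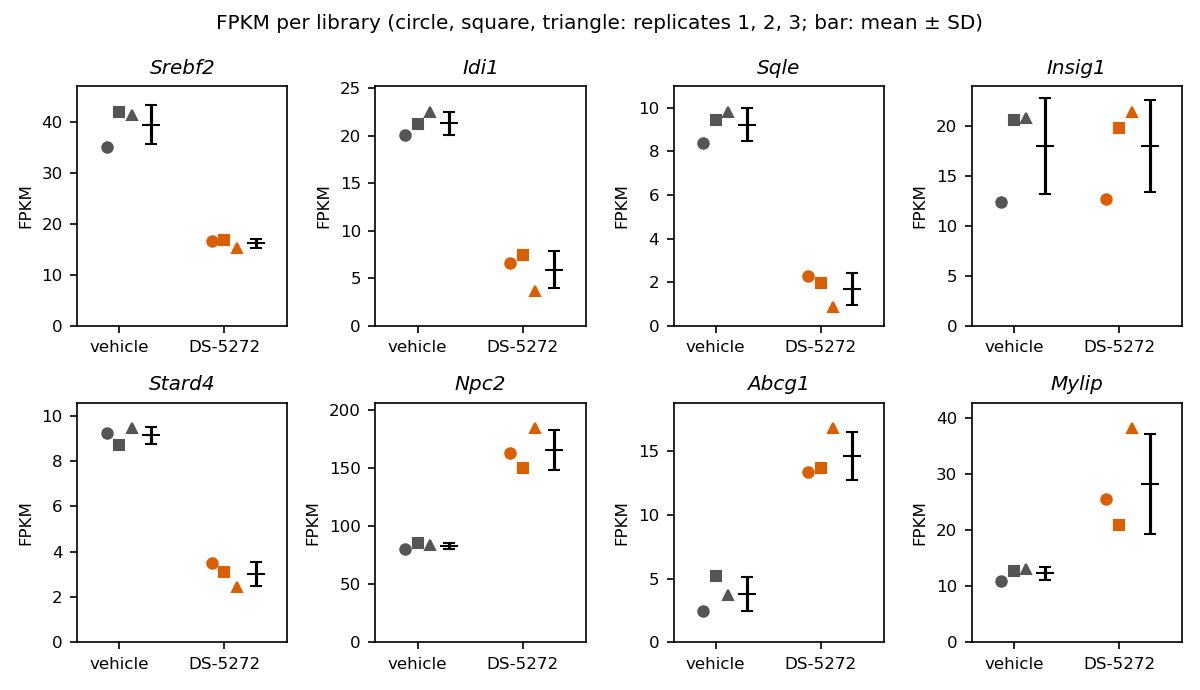
FPKM (linear axes from 0) of selected members in each library, with symbols for replicates 1, 2 and 3 and bars of the mean ± SD of each group (n = 3). Srebf2 and Sqle separate downward and Npc2 and Abcg1 upward, and Insig1 has the same spread in both groups.

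The mean of Abcg1 and Mylip was 2.7, 3.21 and 3.03 log2(FPKM + 1) with vehicle and 4.29, 4.17 and 4.72 with DS-5272. With Abca1, which passed the filter on low values only through the treated group, the mean was 1.86, 2.2 and 2.1 with vehicle. It was then 3.68, 2.97 and 3.42 with DS-5272. The mean of Abcg1 and Mylip was above every vehicle value in every treated library. The mean of the 16 synthesis enzymes, given above, was below every vehicle value in every treated library. An exact permutation test of 3 against 3 cannot go below p = 0.1.

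The 3 treated libraries were not equal. Of the 14 members that fell, 12 were lowest in DS-5272 replicate 3, among them Sqle, Idi1 and Tmem97. Of the 5 that rose, 3 were highest in that library and 2 in DS-5272 replicate 1. DS-5272 replicate 3 was also the library with the highest Cdkn1a (485 FPKM), the highest granulocyte sum (14700 FPKM) and the lowest proliferation sum (37.9 FPKM). Its estimated depth was the lowest, 23000000 fragments against 28000000 to 43000000 in the others. The part of these differences in the order of the treated libraries was not tested.

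Neighbouring genes of the pathway were read from 5 further lists. Of 71 tested genes in them, 27 (38.0%) were higher, against 24.2% of all tested genes, and 15 (21.1%) were lower, near the 22.0% of all tested genes, with a median of 0.30. The lists differed in direction, as the plot by list shows.

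**Figure D5:**
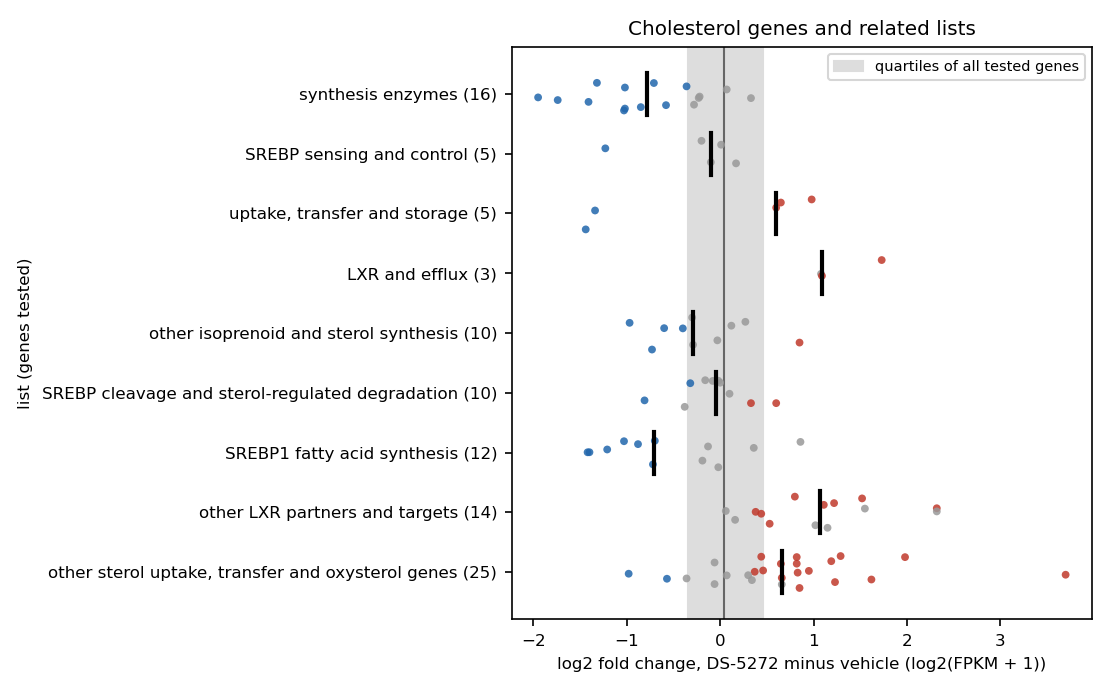
Log2 fold change (DS-5272 minus vehicle) of every tested gene in the 4 groups of members and the 5 further lists, 1 point per gene (blue lower, red higher, grey without a call at adjusted p under 0.05), with the median of each list as a bar and the quartiles of all tested genes as a grey band. The medians run from −0.78 for synthesis enzymes to 1.09 for LXR and efflux.

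Other genes of isoprenoid and sterol synthesis were mostly lower or without a call, with 4 lower and 1 higher of 10. Pdss1, which makes the isoprenoid tail of coenzyme Q, went from 6.06 ± 0.206 to 2.67 ± 0.859 FPKM (SD, n = 3, log2 fold change −0.97, adjusted p = 0.00785). Msmo1, the methyl sterol oxidase listed under its older symbol Sc4mol, went from 11.6 ± 1.05 to 6.59 ± 0.401 FPKM (−0.73, adjusted p = 0.00401). Por, the reductase that feeds electrons to CYP51 and SQLE, rose from 66.7 ± 7.87 to 121 ± 3.61 FPKM (0.85, adjusted p = 0.00306), against the direction of the enzymes it serves.

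Genes of SREBP cleavage and sterol-regulated degradation were split, with 2 higher and 2 lower of 10 and a median of −0.05. Both counts were near the shares of all tested genes, 24.2% higher and 22.0% lower. Without any 1 library 1 gene of this list was higher and 1 to 3 were lower. Pgrmc1, a heme protein that binds INSIG1 and CYP51, went from 24.2 ± 0.878 to 13.4 ± 1.08 FPKM (−0.81, adjusted p = 0.00243). Syvn1, an endoplasmic reticulum ubiquitin ligase, went from 23.0 ± 3.63 to 35.4 ± 4.57 FPKM (0.60, adjusted p = 0.0184).

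Of 12 tested fatty acid genes driven by SREBP1, 7 were lower, 0 were higher and 5 had no call, with a median of −0.71. The share lower was 58.3%, against 22.0% of all tested genes, of which 24.2% were higher. Without vehicle replicate 1, 2 or 3 the number lower was 3 in each case. At an unadjusted p under 0.05 (limma) 1 was higher, Lpin1. Fads1, a desaturase of polyunsaturated fatty acids, went from 8.95 ± 1.3 to 2.85 ± 1.2 FPKM (−1.42, adjusted p = 0.00661). Fads2, its partner, went from 2.31 ± 0.992 to 0.22 ± 0.161 FPKM (−1.40, adjusted p = 0.00712), and passed the filter on low values only through the vehicle group. Fasn, fatty acid synthase, went from 23.7 ± 1.83 to 10.4 ± 4.53 FPKM (−1.21, adjusted p = 0.0203, and 0.0517 to 0.0696 without any 1 vehicle library). With the replicate block 2 genes of the list were called higher, Acss2 (adjusted p = 0.0391) and Lpin1 (0.0415), chosen after their values were seen.

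Of 14 tested partners and other targets of LXR, 8 were higher, 0 were lower (0 also at an unadjusted p under 0.05, limma) and 6 had no call, with a median of 1.06. The share higher was 57.1%, against 24.2% of all tested genes, of which 22.0% were lower. The number higher was 5, 3 and 4 without vehicle replicate 1, 2 or 3, and the median was 0.59 without DS-5272 replicate 1. The genes without a call were Rxrb, Ncor1, Pltp, Apoe, Mertk and Cd5l, named after their values were seen. Apoe, an apolipoprotein abundant in macrophages, was at 211, 18.6 and 34.7 FPKM in the treated libraries, and Pltp, a phospholipid transfer protein, at 5.67, 0.542 and 1.58, both highest in DS-5272 replicate 1. Arl4c, a small GTPase and known LXR target, went from 1.21 ± 0.156 to 10.2 ± 2.56 FPKM (2.32, adjusted p = 0.000828). Smpdl3a, a phosphodiesterase and LXR target, went from 60.3 ± 13.4 to 141 ± 31.0 FPKM (1.22, adjusted p = 0.00587). Lpl, lipoprotein lipase, was at 0.167, 0.0275 and 0.239 FPKM with vehicle and 6.02, 1.84 and 0.743 with DS-5272 (1.52, adjusted p = 0.0375), with a change of 0.96 without DS-5272 replicate 1 and a call lost under 5 alternatives. Lpl, Pltp and Mertk passed the filter on low values only through the treated group, with vehicle means of 0.144, 0.491 and 0.559 FPKM. Such genes could enter this list only as higher, so its counts and median rest on them in part. Cd5l and Mertk belong both to this list and to the macrophage markers.

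Other genes of sterol uptake, transfer and oxysterol metabolism rose more often than they fell, with 16 higher and 2 lower of 25 and a median of 0.66. These were 64.0% and 8.0%, against 24.2% and 22.0% of all tested genes. Msr1, a scavenger receptor of macrophages and other myeloid cells, went from 0.56 ± 0.154 to 20.8 ± 8.93 FPKM (3.70, adjusted p = 0.00121), and passed the filter on low values only through the treated group. Lrp1, a receptor for lipoprotein remnants, went from 5.82 ± 0.66 to 26.4 ± 7.57 FPKM (1.98, adjusted p = 0.00155). Plin2, the coat protein of lipid droplets, went from 101 ± 33.0 to 328 ± 155 FPKM (1.62, adjusted p = 0.0148, and 0.0557 without vehicle replicate 2). The macrophage and granulocyte sums given above were also higher in the treated libraries. Among these the macrophage sum was 512, 219 and 286 FPKM, highest in DS-5272 replicate 1. Msr1 (10.5, 26.6 and 25.2 FPKM), Lrp1 (21.0, 23.2 and 35.1) and Plin2 (185, 307 and 493) were lowest in that library. The part of either sum was not tested.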

How the data were processed

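The authors trimmed paired-end reads of strand-specific libraries with cutadapt 1.8.1, aligned them to GRCm38 transcripts with TopHat2 2.1.1 and computed the deposited FPKM values with Cufflinks 2.2.1, so no counts were given and no count model was used. Of 26632 entries with 26082 names, lines sharing a symbol (435 names) were summed, and 433 entries joined several genes.

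Samples were grouped by treatment. The 11130 genes averaging 1 FPKM or more were compared with limma 3.58.1 (R 4.3.3, variance trend, two-sided) on log2(FPKM + 1), with Benjamini-Hochberg adjustment over all of them and a threshold of 0.05. This scale understates changes of low genes. An exact permutation test of 3 against 3 cannot go below p = 0.1. Tables were made in pandas 2.3.3 and numpy 2.4.6 and figures in matplotlib 3.10.9 (Python 3.11.15).

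The members and lists were chosen with earlier results of these data known. Named were all members, up to 3 of the largest called changes without overlap per further list, Cdkn1a and Mdm2. Of the marker lists, C1qa, Cd5l and the leukemia genes with an entry of their own were named. Some genes of the pathway are not reported here. Deviations from group means correlated by 0.66, 0.21 and 0.43 between same-numbered libraries and by −0.58 to 0.34 otherwise. All same-numbered values were over 0.1, but they were not always the highest. Vehicle replicate 2 correlated by 0.34 with DS-5272 replicate 3 and by 0.21 with DS-5272 replicate 2. The numbers, which come from the sample titles, were used as a block in an alternative fit only. The main fit had no block. Depth was estimated from low FPKM steps and gives the scale only. Of 32 members, 11 share an exon with another gene in GENCODE, and their values can include its fragments: Hmgcs1, Idi1, Fdps, Fdft1, Lss, Cyp51, Tm7sf2, Srebf1, Scap, Npc1 and Nr1h3. Results were recomputed without a filter or with one of 5 FPKM, with a pseudocount of 0.1, after scaling to a common total (TPM), median ratio, upper quartile or quantiles, with the replicate block, without the variance trend, with the highest line of each symbol, and without each library in turn.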

Additional observations from a re-analysis of the deposited data

How the results depend on the processing

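Of the 19 members called, 15 kept call and direction under each of the 16 alternatives that could test them, and the exceptions were Pmvk, Dhcr7, Npc1 and Soat1. Of the 10 not called, 6 were called under some alternative and 3 changed sign, namely Ebp, Insig1 and Insig2. With the replicate block 3367 genes were higher and 2771 lower over all genes, the members stayed at 5 and 14, and the further lists were at 33 and 17. The block changed the call of no member, and among the genes named it changed those of Cdkn1a, Mdm2, Acss2, Lpin1, Cd5l, Myb and Pltp. Myb was then called lower (limma, adjusted p = 0.0369) and Pltp higher (0.0353).

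Rescaling to a common total gave 1717 higher genes in the whole table, 3 lower and a median of −0.36 in sterol sensing, 1 higher and a median of 0.36 in transfer and storage, 3 higher and a median of −0.54 over the members, and medians of −1.10 for synthesis enzymes, 1.37 for LXR and efflux and 0.07 for the further lists. A pseudocount of 0.1 gave medians of −0.92 for synthesis enzymes and 1.96 for LXR and efflux, and a mean of at least 5 FPKM gave −0.58 and 1.41, and 9 lower genes in the further lists, where fewer genes were tested. Quantile normalization gave medians of 0.47 for transfer and storage and 0.19 for the further lists, and the upper quartile gave 0.20 for the latter. Scaling to a common total divided each library by its FPKM sum, 445316 to 501241 with vehicle and 499229 to 661184 with DS-5272. On average it therefore lowered treated values against vehicle values. Apart from this and the smaller number of genes under the 5 FPKM filter, the cause of these shifts was not tested.

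Leaving out 1 library at a time gave 1623 to 2934 higher and 1389 to 2432 lower genes in the whole table, both lowest without vehicle replicate 2, medians of −0.22 to −0.01 for sterol sensing, 0.48 to 0.70 for transfer and storage, 1.07 to 1.43 for LXR and efflux and −0.38 to −0.20 over the members, and for the further lists 16 to 26 higher genes, 8 to 17 lower genes and medians of 0.21 to 0.34. Without vehicle replicate 3, 1492 genes were lower in the whole table. Depth limits low genes such as Abca1, whose vehicle values lay under 0.2 FPKM.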

Other observations

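Several genes of the further lists lay under the mean of 1 FPKM and were not tested. Ch25h, which makes 25-hydroxycholesterol, was listed at 0 in all 6 libraries. Cyp7b1, which breaks down oxysterols, was listed at 0 in the vehicle libraries and at 0.0144, 0.033 and 0.0399 FPKM in the treated libraries. Cyp27a1, which makes 27-hydroxycholesterol, was at 4.97, 5.32 and 4.73 FPKM with vehicle and 11.3, 12.6 and 17.9 with DS-5272 (limma, log2 fold change 1.29, adjusted p = 0.00324), and was named after its values were seen.

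Lipa, the lysosomal acid lipase that frees cholesterol from its esters, was also named after its values were seen. It was at 28.6, 25.4 and 26.6 FPKM with vehicle and 60.8, 62.1 and 64.1 with DS-5272 (log2 fold change 1.19, adjusted p = 0.000703), and the treated libraries lay close together.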
